A study of Mus musculus with 10 samples.

Results

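The genes described here are 10 genes of the contractile and adhesive actin cytoskeleton that are smooth muscle actin genes or targets of the serum response factor (SRF): the actin genes Acta2 and Actg2, the actin-binding protein genes Tagln, Cnn1, Cnn2, Tpm1 and Tpm2, the myosin light chain gene Myl9, the adhesion gene Vcl and the small GTPase gene Rhob. They were taken as a list of gene names, drawn up with earlier results of these data known. All 19 probe sets annotated to a single one of these symbols were taken, out of 45101 on the array. The cells were mouse Lewis lung carcinoma cells, a tumour line from the C57BL/6 strain, that stably expressed TDAG8, the receptor encoded by Gpr65 that couples to G proteins when protons bind it, or carried a control vector. They are called the TDAG8 line and the control line; the sources used here do not give the transgene's promoter or whether a line is a clone. Serum was withheld for 12 h, in medium with albumin at pH 7.4, and the cells then received fresh medium at pH 6.4 or pH 7.4 for 4 h or 12 h. A further sample of each line came from starved cells before treatment. Each line thus had 5 groups, namely pH 6.4 for 4 h or 12 h, pH 7.4 for either time, and before treatment, with 1 array for each of the 10 groups and RNA pooled from 4 cultures on each array. The stated purpose was to find genes that TDAG8 regulates in culture.

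SRF is a transcription factor that binds a short sequence called the CArG box and drives 2 kinds of genes through different cofactors. The myocardin-related factors are held inactive by monomeric actin and are released when actin is assembled into filaments, and they switch on genes of actin filaments, contraction and adhesion. The ternary complex factors are activated by ERK kinase and switch on immediate early genes such as Fos. In smooth muscle, myocardin and SRF maintain a contractile programme of which Acta2, Tagln and Cnn1 are the usual markers, and tumour cells and fibroblasts use parts of the same programme for stress fibres.

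The promoters are shown because SRF's own site can be read from them. Promoter sequence was found for 8 of the 10 genes in the RefSeq table of mouse build GRCm38.p6, and Actg2 and Tagln had no entry. The 250 bases before the listed start were searched for the CArG box on both strands, which for this palindromic motif are the same. An exact CArG box was present in Myl9, Vcl and Cnn2, that is 3 of 8, and in 1.47% of the 32851 promoter windows of the same length. With at most 1 letter off, Acta2 and Tpm1 were added (5 of 8, against 18.6% of all windows). Acta2 held a pair of such sites 84 and 34 bases before the listed start, and Tpm1 a pair at 221 and 80. Besides its exact box, Myl9 held a site with 1 letter off at 99. Both forms were absent from the windows of Rhob, Tpm2 and Cnn1. The 5 windows below are Acta2 at chr19:34255374-34255623 (minus strand), Myl9 at chr2:156775214-156775463 (plus strand), Vcl at chr14:20929148-20929397 (plus strand), Cnn2 at chr10:79988350-79988599 (plus strand) and Rhob at chr12:8500010-8500259 (minus strand). Each runs from 5′ to 3′ on the gene's strand and ends at the base before the listed start. The annotated genes begin at 34255585 for Acta2, 156775408 for Myl9 and 20929383 for Vcl. Part of these 3 windows thus lies inside the gene, in Acta2 the part with both sites. The Tpm1 window, which is not printed, is chr9:67049214-67049463 (minus strand), and the annotated Tpm1 gene begins at 67049672. The whole Tpm1 window, with both of its sites, thus lies inside the gene. The windows of Cnn1 and Tpm2 also lie partly inside their genes. Capitals mark the exact CArG boxes in Myl9, Vcl and Cnn2 and the sites with 1 letter off in Acta2, and Rhob has no capitals. The Myl9 site with 1 letter off is left in lower case.
Acta2: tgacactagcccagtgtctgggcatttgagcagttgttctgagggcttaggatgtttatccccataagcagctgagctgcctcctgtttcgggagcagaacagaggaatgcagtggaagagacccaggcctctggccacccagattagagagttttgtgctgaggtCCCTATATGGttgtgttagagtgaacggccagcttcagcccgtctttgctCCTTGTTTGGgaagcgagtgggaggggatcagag
Myl9: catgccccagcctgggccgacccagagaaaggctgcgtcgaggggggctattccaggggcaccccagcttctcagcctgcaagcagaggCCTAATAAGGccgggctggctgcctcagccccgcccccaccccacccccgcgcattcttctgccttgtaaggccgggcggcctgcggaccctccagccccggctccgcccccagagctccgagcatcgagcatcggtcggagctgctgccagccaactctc
Vcl: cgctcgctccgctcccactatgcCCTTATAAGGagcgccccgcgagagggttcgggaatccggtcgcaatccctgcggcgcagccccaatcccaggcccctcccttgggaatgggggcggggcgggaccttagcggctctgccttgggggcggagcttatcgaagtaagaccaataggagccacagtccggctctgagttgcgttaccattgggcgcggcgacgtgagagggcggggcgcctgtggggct
Cnn2: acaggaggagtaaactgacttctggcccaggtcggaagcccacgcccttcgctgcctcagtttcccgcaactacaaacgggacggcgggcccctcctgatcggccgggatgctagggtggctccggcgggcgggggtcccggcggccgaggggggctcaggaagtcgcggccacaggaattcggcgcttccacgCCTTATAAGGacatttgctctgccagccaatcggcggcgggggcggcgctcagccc
Rhob: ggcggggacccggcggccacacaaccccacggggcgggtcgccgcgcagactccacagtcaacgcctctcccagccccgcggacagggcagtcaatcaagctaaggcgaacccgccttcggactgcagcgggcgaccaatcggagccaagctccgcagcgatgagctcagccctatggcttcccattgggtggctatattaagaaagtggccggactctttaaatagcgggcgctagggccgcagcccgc

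In the same windows the CATTCC motif (either strand), bound by TEAD factors, was found in Acta2, Vcl and Tpm1 and in 12.6% of all windows. The cAMP response element TGACGTCA was found in 0 of 8 and in 1.55% of all windows, the AP-1 motif TGANTCA in 0 of 8 and in 6.75%, and the CCAAT motif in 5 of 8, Rhob among them, and in 33.8%. These are matches of letters in short windows, and occupancy was not measured.

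The signal is the deposited linear value of a probe set, with a 2% trimmed mean of 100 on every array. Probe sets differ in brightness at equal RNA, so levels of different genes are not compared. A signal of 6.61 is the level below which a probe set's mean was taken as too low to test. The TDAG8 transgene could not be read: the single Gpr65 probe set gave 0.3 to 5.3 on all 10 arrays. Most smooth muscle and pericyte markers were not readable, and the identity of the cells was not tested. Myh11 (0.6 to 7.5), Lmod1 (0.7 to 7.5), Kcnmb1 (0.4 to 6.4) and the cofactor gene Myocd (0.4 to 6.9) lay at or near the lower end of the array. Rgs5 (2.0 to 13.0) did not pass the filter either. Of the 8 smooth muscle and pericyte markers 3 passed it, namely Des (4.0 to 33.5), Pdgfrb (95.3 to 654.2) and Cspg4 (10.7 to 24.3). Of 6 epithelial markers Krt8, Krt18 and Epcam passed the filter, and Cdh1 did not exceed 5.3.

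The 10 genes separated into those with and without a readable signal. Tagln, which encodes the actin-bundling protein transgelin, gave 0.8 to 6.9 over the 10 arrays, with 9 arrays under 6.61. Cnn1, the smooth muscle calponin, gave 0.5 to 4.8, with all 10 arrays under that level. These 2 genes were not tested, and at these levels no difference between groups was detectable. The other smooth muscle actin gene, Actg2, was close to the limit at 1.1 to 17.0 and was tested, with 2 arrays under 6.61. The remaining 7 genes were clearly above it: Myl9 with a median of 36.9, Acta2 with 419, and Vcl, Rhob, Tpm2, Tpm1 and Cnn2 with medians between 827.5 and 1391 for their brightest probe sets. Acta2 was read by 1 probe set, and its other 2 did not exceed 5.0 and 8.2. The name of the bright Acta2 probe set marks probes that can match more than 1 transcript, so a contribution of related actin transcripts was not tested. The plot of signals by time and pH shows all 10 genes.

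**Figure D1:**
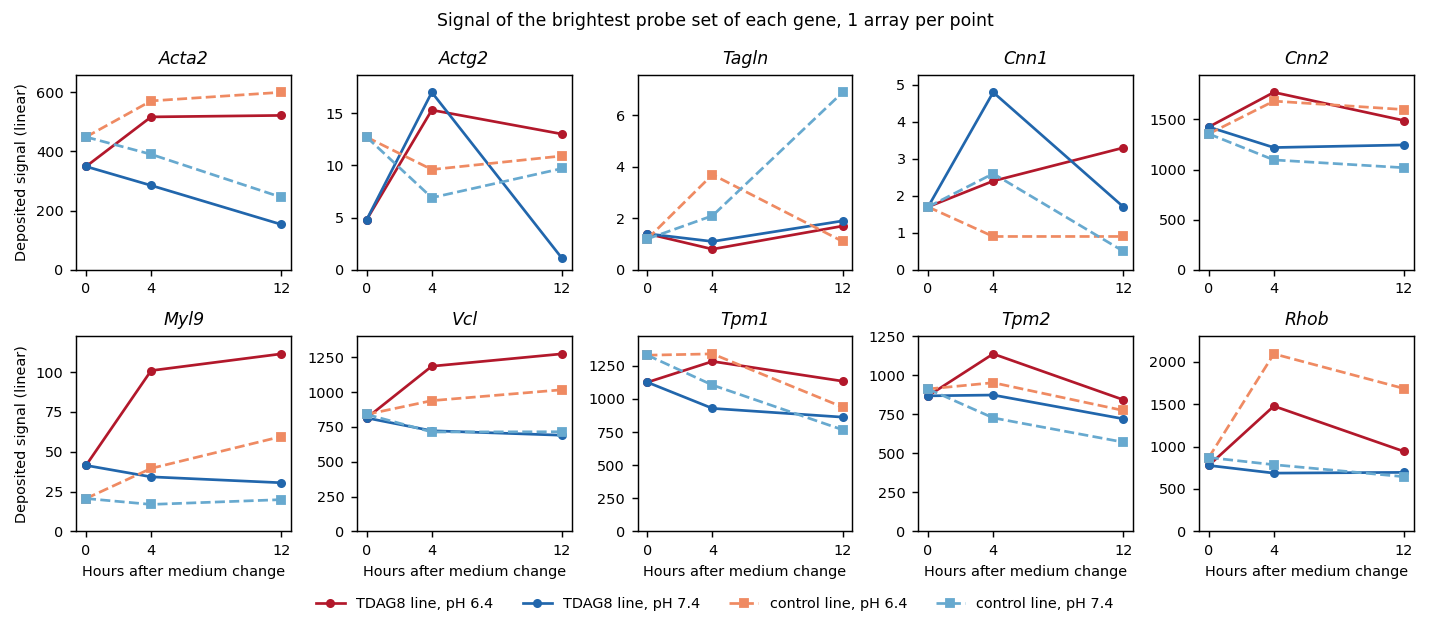
Deposited linear signal of the brightest probe set of each of the 10 genes against hours after the medium change, with 1 array per point; hour 0 is the array before treatment, shared by both pH curves of a line. At pH 6.4 Acta2, Cnn2, Myl9, Vcl and Rhob lie above their pH 7.4 and hour 0 values in each line, while Tagln and Cnn1 do not exceed 6.9 and 4.8.

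The first comparison asked how acid medium changed these genes in both lines. Among the 8 genes tested, Myl9, Acta2 and Rhob rose at pH 6.4 relative to pH 7.4 and 0 fell, by limma's moderated test over 4 matched pairs of arrays with Benjamini-Hochberg adjustment. Over all 12161 genes 4.47% passed as higher and 5.56% as lower. An unadjusted p under 0.05 was reached by 7 of the 8, against 31.9% of all genes. The 8 genes had a median log2 difference of 0.61, against -0.0026 for all genes tested, and 7 of them were higher in 4 of 4 pairs, as were 21.6% of all genes. The exception was Actg2 at 4 h in the TDAG8 line. At pH 6.4 the 4 arrays lay above the 4 arrays at pH 7.4, with no overlap, for Acta2, Cnn2, Myl9, Vcl and Rhob (5 of 8, against 12.6% of all genes). After quantile normalisation, those of Acta2, Myl9, Vcl and Rhob also lay above both arrays before treatment (4 of 8, against 9.57%). In deposited signal Myl9 did not, at 39.5 in control cells at pH 6.4 for 4 h against 41.4 in TDAG8 cells before treatment, and Cnn2 did. On the normalised log2(signal + 2.4) scale, single pairs differed by at least 1 for Myl9 at 4 h in the TDAG8 line (3.37% of all genes), for Acta2, Actg2 and Myl9 at 12 h there (5.81%), for Myl9 and Rhob at 4 h in the control line (3.26%), and for Acta2, Myl9 and Rhob at 12 h there (5.95%). Rhob at 4 h in the TDAG8 line lay just under this limit, with a ratio of 2.15 in deposited signal. Leaving out a pair removed most calls, among these genes and over all genes. Without the TDAG8 pair at 12 h or the control pair at 12 h 0 of the 8 passed, as did 0 of all 12161 genes. Without the TDAG8 pair at 4 h 0 of the 8 passed, and 24 of all genes passed as higher. Without the control pair at 4 h Myl9 alone of the 8 passed, and 125 of all genes passed as higher. With 1 array per condition, p-values reflect spread among matched pairs of arrays and not among cultures.

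Myl9 encodes the regulatory light chain of smooth muscle and non-muscle myosin, whose phosphorylation starts contraction. TDAG8 cells at pH 6.4 had signals of 100.9 at 4 h and 111.4 at 12 h, against 34.2 and 30.5 at pH 7.4 and 41.4 before treatment. Control cells at pH 6.4 had 39.5 and 59.5, against 16.9 and 19.9 at pH 7.4 and 20.6 before treatment. Every pH 6.4 array of a line lay above that line's other 3 arrays. The fitted pH difference was 1.56 on the log2(signal + 2.4) scale (SE 0.16, adjusted p = 0.0144), a 2.95-fold rise. With a pseudocount of 32 in place of 2.4 it was 0.95 and still passed (adjusted p = 0.00515).

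Acta2 encodes smooth muscle alpha-actin, the actin of contractile stress fibres. It had in TDAG8 cells at pH 6.4 signals of 516.5 at 4 h and 521.5 at 12 h, against 284.9 and 153.1 at pH 7.4 and 349.0 before treatment. Control cells at pH 6.4 had 570.6 and 599.7, against 390.1 and 245.0 at pH 7.4 and 448.7 before treatment. The pH 6.4 values were close to each other at the 2 times in each line, and the lowest array of each line was that at pH 7.4 for 12 h. The fitted difference was 1.12 (SE 0.22, adjusted p = 0.0401), or 2.17-fold. Averaged over its 3 probe sets, of which 2 were unreadable, it was 0.46 and did not pass (adjusted p = 0.178). Actg2, the enteric smooth muscle actin gene, had in TDAG8 cells at pH 6.4 signals of 15.3 and 13.0, against 17.0 and 1.1 at pH 7.4 and 4.8 before treatment. Its control line values were 9.6 and 10.9 at pH 6.4, against 6.9 and 9.7 at pH 7.4 and 12.7 before treatment. The groups overlapped, and the difference of 0.64 (SE 0.39, adjusted p = 0.313) was 0.13 without the TDAG8 pair at 12 h, which holds the low array.

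Rhob encodes a small GTPase of endosomes whose transcript is quickly induced by growth factors and stress. It had in TDAG8 cells at pH 6.4 signals of 1476.7 at 4 h and 941.7 at 12 h, against 686.3 and 695.1 at pH 7.4 and 776.9 before treatment. Control cells at pH 6.4 had 2092.1 and 1683.5, against 785.5 and 644.1 at pH 7.4 and 870.1 before treatment. The 4 arrays at pH 6.4 were the 4 highest of the 10, and in both lines the signal at pH 6.4 was lower at 12 h than at 4 h. The fitted difference was 1.0 (SE 0.18, adjusted p = 0.0329), or 2.00-fold.

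Vcl encodes vinculin, which links integrin adhesions to actin filaments. It had in TDAG8 cells at pH 6.4 signals of 1186.7 and 1275.4, against 722.8 and 690.6 at pH 7.4 and 814.7 before treatment. Control cells at pH 6.4 had 939.2 and 1017.4, against 714.1 and 715.7 at pH 7.4 and 840.3 before treatment. The 4 pH 6.4 arrays were above the other 6, but the difference of 0.57 (SE 0.14, adjusted p = 0.0596) did not pass for this probe set. Cnn2, the calponin of non-muscle cells, had in TDAG8 cells at pH 6.4 signals of 1771.1 and 1488.8, against 1219.7 and 1245.6 at pH 7.4 and 1425.2 before treatment. Control cells at pH 6.4 had 1683.1 and 1598.7, against 1096.0 and 1018.2 at pH 7.4 and 1356.2 before treatment. Its pH groups did not overlap, and its difference was 0.42 (SE 0.11, adjusted p = 0.0703). Vcl and Cnn2 passed with a filter at the 60th percentile of level (adjusted p = 0.0333 and adjusted p = 0.0386 by limma).

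Tropomyosins lie along actin filaments and govern myosin access. Tpm1 had in TDAG8 cells at pH 6.4 signals of 1284.2 and 1134.7, against 929.0 and 863.0 at pH 7.4, and 1341.0 and 938.8 against 1105.2 and 767.2 in the control line, with 1126.4 and 1330.9 before treatment in the TDAG8 and control lines. Tpm2 had in TDAG8 cells at pH 6.4 signals of 1136.7 and 842.5, against 873.1 and 720.5 at pH 7.4, and 952.0 and 774.0 against 726.6 and 571.2 in the control line, with 867.8 and 911.8 before treatment. Each pair was higher at pH 6.4 while the pH groups overlapped, and the fitted differences of 0.29 for both (SE 0.11 each, adjusted p = 0.149 for Tpm1 and adjusted p = 0.136 for Tpm2) did not pass. With the mean of its 4 probe sets the Tpm2 difference was 0.56 and passed (adjusted p = 0.0354).

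**Figure D2:**
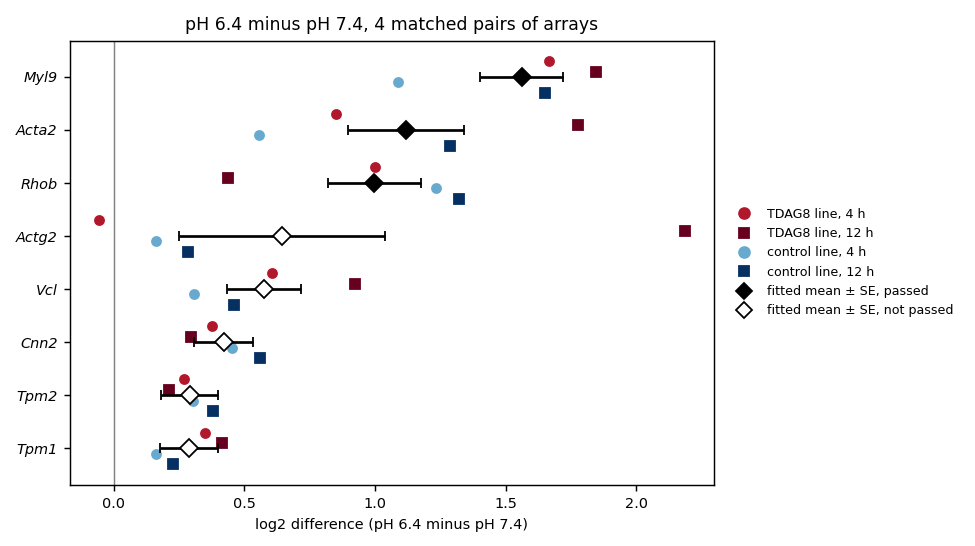
Difference between pH 6.4 and pH 7.4 on the log2(signal + 2.4) scale for the 8 tested genes, with each of the 4 matched pairs as a coloured point and the fitted mean ± SE as a diamond, filled where the adjusted p was under 0.05. Only the filled diamonds of Myl9 (1.56), Acta2 (1.12) and Rhob (1.0) passed, and the Actg2 pairs ranged from -0.06 to 2.18.

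Some dimmer probe sets of Vcl, Tpm1 and Tpm2 gave larger pH differences than the brightest ones. When every probe set above the filter was tested by itself, 14 of the 19 were tested and 7 passed as higher, against 5.57% of 22854 probe sets. Besides those of Myl9, Acta2 and Rhob these were the dimmer Vcl probe set, with a log2 difference of 0.83 (SE 0.16, adjusted p = 0.0345) and signals of 67.2 to 153.0, and 1 of 3 Tpm1 and 2 of 4 Tpm2 probe sets. The Tpm1 probe set that passed had in TDAG8 cells at pH 6.4 signals of 63.6 and 40.0, against 26.9 and 19.0 at pH 7.4 and 33.7 before treatment. Control cells at pH 6.4 had 54.3 and 62.9, against 27.1 and 25.8 at pH 7.4 and 19.4 before treatment. Its difference was 1.21 (SE 0.13, adjusted p = 0.0117), where the 2 bright Tpm1 probe sets gave 0.31 and 0.29. The Tpm2 probe sets that passed had differences of 0.82 (SE 0.15, adjusted p = 0.0286) and 0.76 (SE 0.13, adjusted p = 0.0238), and the other 2 gave 0.36 and 0.29. The name of the Tpm2 probe set with 0.76 marks probes that can match more than 1 transcript. Both tropomyosin genes make several transcripts by alternative promoters, exons and ends, and which transcripts each probe set reads was not examined. Over the 10 arrays the 3 Tpm1 probe sets correlated with each other at 0.31 to 0.81, the 4 Tpm2 probe sets at 0.59 to 0.94 and the 2 Vcl probe sets at 0.93, as a description of arrays that share conditions.

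**Figure D3:**
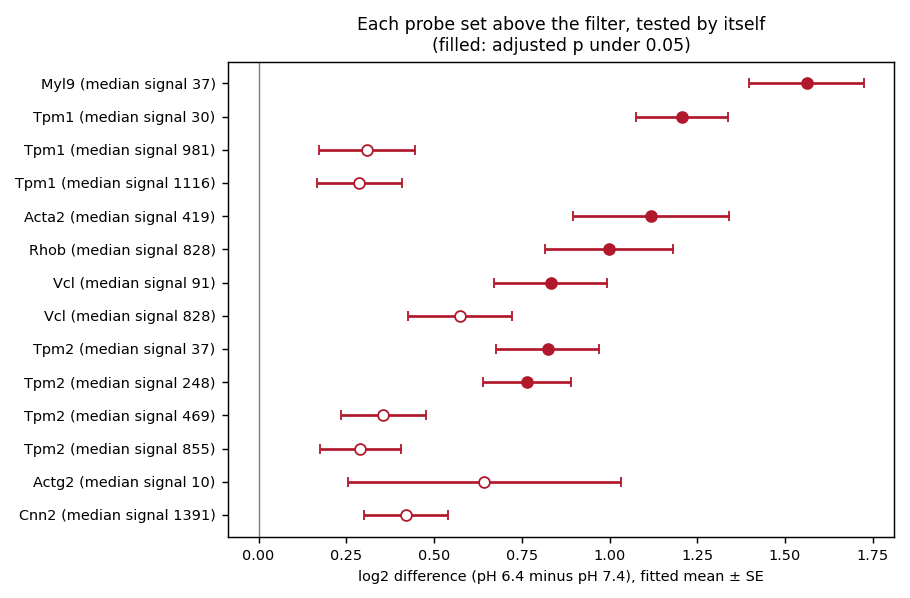
Difference between pH 6.4 and pH 7.4 on the log2(signal + 2.4) scale for each of the 14 probe sets above the filter, tested by itself, as fitted mean ± SE, filled where the adjusted p was under 0.05. The dim Tpm1 probe set (1.21) lies apart from the 2 bright ones (0.31 and 0.29), and 2 of 4 Tpm2 probe sets passed.

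The arrays before treatment show in which direction each pH group moved. This is a description, because both pH groups are set against the same array of each line. At 12 h at pH 7.4 all 8 tested genes were lower than before treatment in both lines, as were 33.2% of all genes. For Acta2 the log2(signal + 2.4) difference was -1.19 in TDAG8 cells and -0.89 in control cells. That of the dim Actg2 was -1.03 and -0.43, where the pseudocount shrinks the difference between 1.1 and 4.8 in TDAG8 cells. After 12 h at pH 6.4 Acta2 was higher than before treatment by 0.58 and 0.40, so most of its pH difference at 12 h lay in the lower pH 7.4 value. Myl9 had the opposite make-up, with 1.42 and 1.45 at pH 6.4 and -0.43 and -0.20 at pH 7.4. Rhob at 4 h was higher than before treatment by 0.80 in TDAG8 cells and 1.10 in control cells at pH 6.4, and differed by -0.19 and -0.14 at pH 7.4. Vcl at 12 h was at 0.68 and 0.25 at pH 6.4, and at -0.25 and -0.21 at pH 7.4. The brightest probe sets of Tpm1 and Tpm2 at 12 h were in TDAG8 cells at 0.01 and -0.06 at pH 6.4, and at -0.40 and -0.27 at pH 7.4. In control cells they were at -0.50 and -0.25 at pH 6.4, and at -0.73 and -0.63 at pH 7.4. The dimmer probe sets did not all follow: in control cells at 12 h at pH 6.4 the Tpm1 probe set that passed for pH was at 1.60, and the 2 such Tpm2 probe sets were at 0.33 and 0.17.

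The pH response was also read at each time, from a fit with a pH effect per time and 2 residual degrees of freedom. Myl9 passed at 12 h (1.75, SE 0.18, adjusted p = 0.0168) and at 4 h (1.38, SE 0.18, adjusted p = 0.0439), and Acta2 passed at 12 h (1.53, SE 0.18, adjusted p = 0.0178) and gave 0.70 at 4 h (adjusted p = 0.0983). Over all genes 11.1% passed as higher and 12.3% as lower at 12 h, and 1.19% and 3.46% at 4 h. The difference between the times was largest for Acta2 among the 7 clearly readable genes, 0.83 (95% interval 0.15 to 1.51, adjusted p = 0.151). It did not pass, and 0 of 12161 genes passed this test by limma (25.8% had an unadjusted p under 0.05), although with trend and robust variances Acta2 did (adjusted p = 0.0283), as 1 of 1836 genes that passed under that setting. For Rhob the difference was -0.24 (95% interval -1.20 to 0.73) and for Myl9 0.37 (95% interval -0.34 to 1.08), intervals that include no difference. Between 12 h and 4 h at equal pH and line, 0 of the 8 genes and 0 of all genes passed (11.7% of all genes had an unadjusted p under 0.05). The values of the 8 genes ran from -0.53 for Actg2 to 0.12 for Myl9.

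The comparison of the lines asked which of these genes differed between the 2 lines at equal medium and time. Myl9 was 1.81-fold higher in the TDAG8 line (log2 0.86, SE 0.12, adjusted p = 0.0432 by limma over 5 matched pairs), higher in 5 of 5 pairs, as were 10.5% of all genes, while the 2 lines' arrays overlapped across conditions. Its TDAG8 to control ratio in signal was 2.01 before treatment, 2.55 (4 h) and 1.87 (12 h) in acid, and 2.02 (4 h) and 1.53 (12 h) in pH 7.4 medium, so the difference was already present before acid was given. It was the 1 gene of the 8 that passed, against 0.674% of all genes as higher and 0.526% as lower. The call was lost without any 1 of the 5 pairs (adjusted p of 0.0716 to 0.139), with every probe set tested by itself (adjusted p = 0.0646), with no filter (adjusted p = 0.133) and with no block (adjusted p = 0.842). Without a pair 4 to 20 of all genes passed as higher, against 82 with every pair kept. Acta2 was lower in the TDAG8 line in 5 of 5 pairs (11.8% of all genes), with a log2 difference of -0.38 (SE 0.09, adjusted p = 0.110), which did not pass. It passed with a filter at the 60th percentile (adjusted p = 0.0486) and with trend and robust variances (adjusted p = 0.0190). Cnn2 was higher in 5 of 5 pairs after normalisation (0.17, SE 0.06, adjusted p = 0.204), and in deposited signal it was lower at pH 6.4 for 12 h, at 1488.8 in TDAG8 cells against 1598.7 in control cells. The log2 differences of Tpm2, Vcl and Tpm1 were 0.21, 0.15 and 0.03, and those of Rhob and Actg2 were -0.28 and -0.23, none of which passed.

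**Figure D4:**
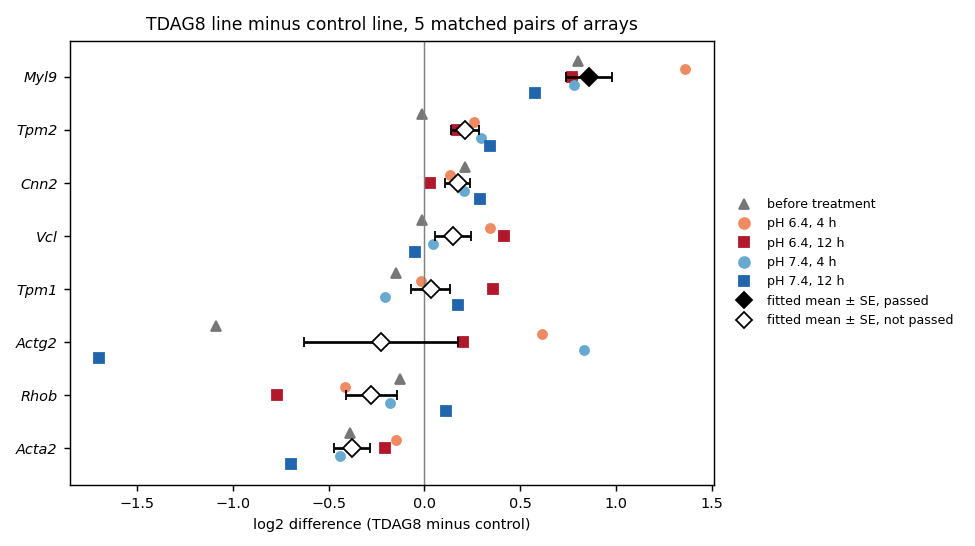
Difference between the TDAG8 line and the control line on the log2(signal + 2.4) scale for the 8 tested genes, with each of the 5 matched conditions as a coloured point and the fitted mean ± SE as a diamond, filled where the adjusted p was under 0.05. All 5 points of Myl9 lie right of 0 and all 5 of Acta2 left of it, and only Myl9 (0.86) passed.

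The question closest to the purpose of the study was whether the pH response differed between the lines. For these genes 0 of 8 passed, as did 0 of all 12161 genes by limma (2.79% had an unadjusted p under 0.05, and 0 of the 8). The fit had 2 residual degrees of freedom. In simulated data it recovered 2 of 100 genes changed by a log2 of 1, so differences of that size would mostly be missed. The pH response of Myl9 was 1.76 in TDAG8 cells and 1.37 in control cells, a difference of 0.39 (95% interval -0.45 to 1.23). That of Acta2 was 1.31 and 0.92 in the TDAG8 and control lines, a difference of 0.39 (95% interval -0.80 to 1.59). Vcl responded by 0.77 in TDAG8 cells and 0.38 in control cells, a difference of 0.38 (95% interval -0.36 to 1.12). Rhob went the other way, with 0.72 in TDAG8 cells and 1.28 in control cells, a difference of -0.56 (95% interval -1.39 to 0.27). These intervals include both no difference and differences as large as the response itself or near it, so the lines were not shown to respond alike. The sign for Acta2 turned to -0.07 without the TDAG8 pair at 12 h, where its pH 7.4 signal of 153.1 was the lowest of the 10 arrays.

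Related genes were taken from lists of the same pathway. Of 9 genes for SRF and its cofactors 8 were tested and 1 rose at pH 6.4, the LIM protein gene Fhl2, itself an SRF target and cofactor, by 1.91 (SE 0.18, adjusted p = 0.0144). It had in TDAG8 cells at pH 6.4 signals of 125.8 and 78.3, against 43.6 and 21.4 at pH 7.4, and 86.3 and 144.1 against 26.7 and 25.9 in the control line. Srf itself gave 0.72 (adjusted p = 0.0629). Mrtfb, which encodes a myocardin-related cofactor, gave -1.23 (adjusted p = 0.0587) and read 101.3 and 82.2 at pH 6.4 for 4 h in the TDAG8 and control lines, against 361.2 and 369.5 at pH 7.4, and the values at 12 h were 225.8 and 259.6 against 389.7 and 327.8. Elk4, a ternary complex factor, gave -0.54 (adjusted p = 0.0636). The median of the 8 was -0.08. Of 10 other smooth muscle contractile genes 7 were tested and 1 rose, the LIM protein gene Csrp1, by 0.96 (SE 0.17, adjusted p = 0.0300), and the median was 0.09. Mylk, the kinase of the myosin light chain, gave -0.54, Smtn 0.46 and Synpo2 0.36, which did not pass over both times. The Synpo2 value joins opposite directions. TDAG8 cells had 48.0 and 39.7 at pH 6.4, against 21.5 and 17.0 at pH 7.4, and control cells 24.3 and 16.5, against 35.8 and 28.6. Its pH by line difference of 1.76 did not pass. In the fit with a pH effect per time, at 12 h Srf (1.03, adjusted p = 0.0234) and Fhl2 passed as higher and Elk4 as lower, as did Smtn (0.90, adjusted p = 0.0196) and Csrp1 as higher and Mylk (-1.24, adjusted p = 0.0266) as lower. At 4 h Fhl2 passed as higher and Mrtfb as lower (-1.86, adjusted p = 0.0368), and 0 of the other contractile genes passed by limma. The shares of all genes were 11.1% higher and 12.3% lower at 12 h, and 1.19% and 3.46% at 4 h.

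Of 15 other cytoskeletal SRF targets 14 were tested and 0 passed by limma. Of the 14, 6 had an unadjusted p under 0.05, against 31.9% of all genes, and the median was 0.06. Their largest values were -0.48 for both Pdlim5 and Lima1, 0.40 for Tpm4 and 0.37 for Flna. At 12 h alone Pdlim5 (-0.64, adjusted p = 0.0456) and Lima1 (-0.55, adjusted p = 0.0347) passed as lower, as did 12.3% of all genes. Of 10 immediate early SRF targets 7 were tested and 4 rose, Ccn1 (3.75), Fos (3.58), Junb (2.08) and Ier2 (0.70, SE 0.15, adjusted p = 0.0478), with a median of 0.70. All medians stand beside -0.0026 for all genes, and the numbers that rose beside 4.47% of all genes. Between the lines 0 genes of these 4 lists passed by limma. An unadjusted p under 0.05 was reached by 3 genes of SRF and its cofactors, by 2 other contractile genes, by 2 other cytoskeletal targets and by 0 immediate early targets, against 20.8% of all genes.

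**Figure D5:**
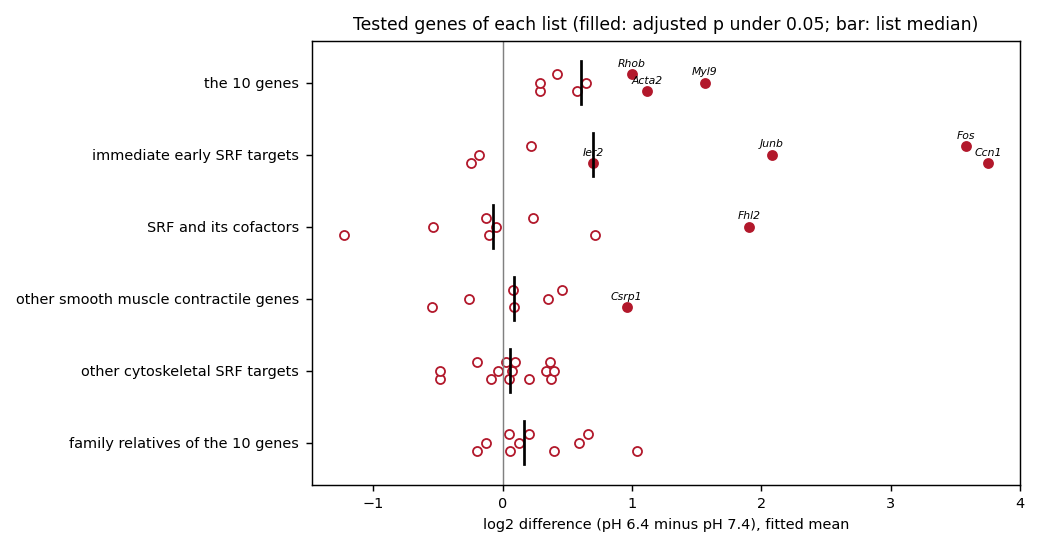
Fitted difference between pH 6.4 and pH 7.4 on the log2(signal + 2.4) scale for the tested genes of each list, 1 point per gene, filled and named where the adjusted p was under 0.05, with a bar at the list median. The 8 tested genes of the 10 lie right of 0 with a median of 0.61, while the other cytoskeletal SRF targets have a median of 0.06 and no filled point.

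Some markers of other cell types differed with pH. The summed signal of 6 fibroblast markers ranged between 1502 and 3815 on the 4 arrays at pH 6.4 and between 3514 and 6906 on the 4 at pH 7.4. Lum (708.4 to 3963.8) was its largest part, while Col1a1 did not exceed 6.4 on any array. Over both times Pdgfra of this list fell (-1.70, adjusted p = 0.0144 by limma), and 0 genes of the other marker lists passed. The sum of the 8 smooth muscle and pericyte markers lay between 157 and 552.5 at pH 6.4 and between 543.5 and 721.5 at pH 7.4, most of it Pdgfrb (95.3 to 654.2). Both sums were mostly lower at pH 6.4, with overlapping ranges. In the limma fit with a pH effect per time, Pdgfra, Lum (-1.75, adjusted p = 0.0218) and Dcn (-1.61, adjusted p = 0.0161) passed as lower at 12 h. So did Pdgfrb (-2.13, adjusted p = 0.0234), against 12.3% of all genes. The leukocyte marker Cd68 passed as higher at 12 h (0.66, adjusted p = 0.0462), against 11.1%. At 4 h Pdgfra had already passed as lower (-1.88, adjusted p = 0.0336), as did 3.46% of all genes. The sum of 6 epithelial markers overlapped too, at 1289 to 2865 against 1619 to 2206. Between the lines the fibroblast sum was 2626 to 6906 in TDAG8 cells, against 1502 to 5258 in control cells, and Dcn of that list passed as higher (0.45, adjusted p = 0.0457). The part of these markers in the results was not tested. In bulk RNA a change in the share of cells and a change in RNA per cell cannot be told apart.

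Among the 8 tested genes, Pearson correlations of log2 values over the 10 arrays, which share lines and conditions, ranged from 0.21 (Actg2 with Cnn2) to 0.91 (Myl9 with Vcl). Acta2 followed Rhob most closely (0.78), Actg2 followed Acta2 (0.70), and Tpm1 followed Tpm2 (0.78). Among 5282 tested genes with a log2 range of at least 1, the 5 most like Acta2 over the 10 arrays were Rpa2 (0.98), Nrm, Mcm4, Cdc6 and Dhodh (0.97 each). Those most like Myl9 were Hmga2-ps1 (0.98), Pdxp and Afp (0.96 each), and Plk3 and Camk2n2 (0.94 each). Those most like Rhob were Dnph1 and Nuak2 (0.98 each), Mettl5 and Slc16a6 (0.97 each) and Icam4 (0.96).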

How the data were processed

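RNA from 4 cultures was mixed for each of 10 Affymetrix Mouse Genome 430 2.0 arrays, and 2 µg was labelled with biotin, per the labels' protocols. The deposited intensity values are linear probe set signals; how the authors made them is not given in the sources used here. On each array the 2% trimmed mean equalled 100, array medians were 11.7 to 13.8, and 2 to 11 values per array were 0.

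Signals were quantile normalised and converted to log2(signal + 2.4), with 2.4 the 20th percentile. Each gene (symbols from GEO's platform annotation, of which 0 needed an update by gene identifier) was represented by its brightest single-symbol probe set, and 12161 of 18193 genes whose mean reached the 40th percentile were tested with limma 3.58.1 in R 4.3.3 (lmFit, eBayes, Benjamini-Hochberg over all tested genes, adjusted p under 0.05). Blocks were line by time for pH (3 residual degrees of freedom), condition for the lines (4), and line by pH for time (3), with 2 for the effects of pH by line and by time. All 10 genes were described, then list genes that passed and the larger differences of each list, and the 5 genes most correlated with each of Acta2, Myl9 and Rhob. Genes and lists were chosen with earlier results of these data known. One list of pathway genes is not reported here. The fits were tested on simulated data. Of 100 genes changed by a log2 of 1, 62 were recovered for pH, 88 for line and 66 for time. For pH by line and for pH by time 2 of 100 were recovered in each. Of 100 genes changed by 3, 95 were recovered for pH by line, 93 for pH by time and 100 for each other fit. Alternatives were other scalings, filters, pseudocounts, probe set rules and models, and each pair left out. The number of arrays limits the precision.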

Additional observations from a re-analysis of the deposited data

How the results depend on the processing

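Matched conditions stood in for replicates, and leaving out a pair removes 1 of few degrees of freedom. Of the 8 tested genes 3 rose at pH 6.4, where 544 of all 12161 genes did. The number was 1 with no filter (103 of 18193 genes). It was 5 with a filter at the 60th percentile (933 of 9358), a signal of 50 or more (940 of 8958) or trend and robust variances (969 of 12161). It was also 5 with a pseudocount of 32 (1058 of 12152), no block (913 of 12161) or pH by time in the model (1520 of 12161). With the mean of probe sets it was 4 (566 of 11435), with Acta2 lost and Vcl and Tpm2 gained. Values as deposited (365 of 12159) and a pseudocount at the 40th percentile (770 of 12154) also gave 4, with Vcl gained. With a pair left out it was 0 to 1, where 0 to 125 of 12161 genes rose. Higher between the lines was 1 gene (Myl9), and 0 with no filter, every probe set by itself, no block, the 8 treated arrays alone or any pair left out. Over all genes 82 were higher, and under these settings 8, 42 (probe sets), 12, 5 and 4 to 20, in that order. Lower between the lines were 0, and 1 (Acta2) with the 60th percentile filter, a signal of 50 or more, trend and robust, or a pseudocount of 32. Over all genes 64 were lower, and under these settings 282 of 9358, 314 of 8958, 427 of 12161 and 345 of 12152, in that order. For pH by time the number higher was 0, and 1 (Acta2) with trend and robust or a pseudocount of 32. Over all genes it was 0 in either direction, and 1836 with trend and robust, of which 1022 were higher. With a pseudocount of 32, 861 of all genes were higher and 699 lower. In the TDAG8 pair at 4 h 1 gene was higher by at least 1 at pH 6.4 (3.37% of all genes). By at least 0.58 it was 4. That number cannot be set against 3.37%, because the share of all genes at this limit was not counted. No pH response changed sign. Line differences that did were Tpm1 (0.03), at -0.048 with arrays centred on the median, -0.022 as deposited, -0.10 with the mean of probe sets and -0.051 to 0.091 with a pair left out (-0.0038 without pH 7.4 at 12 h), and Actg2 (-0.23), at -0.49 to 0.14 with a pair left out. For pH by line, Acta2 (0.39) was -0.49 with the mean of probe sets, and pairs left out gave -0.071 to 0.86 for Acta2 and -0.28 to 1.96 for Actg2 (0.84), lowest for both without the TDAG8 12 h pair. For pH by time, values as deposited gave -0.12 for Cnn2, -0.030 for Tpm1 and -0.053 for Tpm2, and the mean of probe sets -0.18 for Tpm1. Pairs left out gave -0.12 to 0.14 for Cnn2 (0.01), -0.075 to 0.096 for Tpm2 (0.01), -0.027 to 0.16 for Tpm1 (0.07) and -0.68 to 0.20 for Rhob (-0.24). For time, Acta2 (-0.38) was 0.17 with the mean of probe sets, and pairs left out gave -0.022 to 0.013 for Cnn2 (-0.0024), -0.79 to 0.092 for Actg2 (-0.53) and -0.038 to 0.22 for Myl9 (0.12). The cause of these changes was not tested.

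Over all genes 1220 passed for pH (0 without the 12 h pair of either line, 3397 with pH by time in the model), and 44.6% of them were higher, against 32.4% with arrays centred on the median and 33.1% as deposited. Between the lines 146 passed (4 without the pH 7.4 pair at 4 h, 881 with trend and robust), 56.2% of them higher, against 65.2% and 67.9%. Centring on the median moved the median pH by time effect of all genes to 0.20, against 0.04. The labels give no replicate numbers, so pairs were matched by condition only, and this block is in the fits for pH, line and time.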

Other observations

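Close relatives of the 10 genes were read by probe sets annotated to them. The names of those of Tagln2, Cnn3 and Actg1 mark probes that can match more than 1 transcript, so a contribution of related transcripts was not tested. Of 12 relatives 10 were tested and 0 passed between pH 6.4 and pH 7.4 over both times by limma. Of the 10, 4 had an unadjusted p under 0.05, against 31.9% of all genes, and the median log2 difference was 0.17. The largest was Tagln2, the transgelin of non-muscle cells, at 1.04 (SE 0.27, adjusted p = 0.0684). At 12 h alone Tagln2 passed as higher (1.54, SE 0.26, adjusted p = 0.0287), as did 11.1% of all genes. It read 1265.1 and 1366.3 at pH 6.4 for 4 h and 12 h in the TDAG8 line, against 723.6 and 671.3 at pH 7.4, and 1205.4 and 2136.3 against 843.8 and 509.8 in the control line, so it was higher at pH 6.4 in each pair while Tagln was unreadable. Myl6, the essential myosin light chain, gave 0.66 and the skeletal actin gene Acta1, with signals of 8.7 to 21.6, gave 0.60. Tpm4 gave 0.40, and the other 6, among them the non-muscle actin genes Actb and Actg1, lay between -0.19 and 0.21.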
